A study of Mus musculus with 24 samples.

Results

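The circadian clock genes examined were 10 transcripts: Arntl, Npas2, Nr1d1, Nr1d2, Dbp, Tef, Per1, Per2, Per3 and Ciart. They were read by symbol from RNA-seq tables of 24 mouse colorectal libraries that each list 24346 symbols, and all 10 were present in each table. All 10 also passed the filter on low values, which kept 13799 genes. The 10 genes were chosen by their FPKM levels in these same libraries, by title group and by tissue, and by the relation between the activators and the repressors in single libraries. Levels and differences of the 10 genes therefore describe these libraries, and the counts of calls given for them are no independent evidence. FPKM, the unit of all levels below, counts fragments relative to transcript length and to library size, so levels can be compared between genes.

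All animals, with either genotype label, were given AOM/DSS: the carcinogen azoxymethane followed by dextran sulfate sodium, which injures the colon lining. Each library came from colorectal tissue labelled tumor or normal. The genotype label was c-MAF_KO or WT, and the titles divide the libraries further into 5 sets, called title groups here (title prefixes in the plots). KO-8-homo had 3 tumor libraries, and so did KO-1-hetero and KO-8-hetero; WT-young had 4 and WT-old 1. Each title group had 2 normal libraries. The labels give zygosity words for the KO animals and age words for the WT animals, but no meaning of the leading 1 or 8, no cell type in which the allele was altered, no animal numbers and no time of day at collection. Whether libraries of a group came from separate animals is not stated, so p-values measure the spread between these libraries, which may be partly technical. Title group cannot be told apart from anything else that was shared by the libraries of a group, such as the day or hour of collection.

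The molecular clock is a feedback loop that runs in most cells of the body, the colon included. ARNTL (also called BMAL1) pairs with CLOCK or its relative NPAS2 and activates genes that carry E-box sequences, among them the Per, Cry, Nr1d, Dbp, Tef and Ciart genes. The PER and CRY proteins and CIART repress this activation. NR1D1 and NR1D2 (REV-ERB alpha and beta) repress Arntl and Npas2 through ROR elements, while DBP and TEF activate genes through D-boxes. Over the day, Arntl and Npas2 therefore peak at about the opposite time from Nr1d1 and Dbp, and the Per genes follow these somewhat later.

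Upstream sequences were available for 9 of the 10 genes in the RefSeq promoter table of GRCm38.p6; the exception was Per2. In the 250 bases before each start site, both strands were searched for the E-box CACGTG, the variant CACGTT, the D-box TTATGTAA or TTACGTAA, and the ROR core motif AGGTCA. The E-box was found in 3 genes (Tef, Per1 and Ciart), the variant in 1 (Nr1d1), the D-box in 1 (Per3) and the ROR motif in 2 (Nr1d2 and Per1). Of 32851 upstream windows of the same length in the table, 6.02% held the E-box, 3.85% the variant, 0.931% a D-box and 14% the ROR motif. The windows of 4 genes that hold motifs and moved together across the libraries are shown, and those of Nr1d1 and Nr1d2 are not. Capitals mark the motifs, the sequence runs 5′ to 3′ towards the start site, and the windows lie at chr3:95882229-95882478 (minus strand) for Ciart, chr4:151044666-151044915 (minus strand) for Per3, chr11:69098699-69098948 (plus strand) for Per1 and chr15:81811164-81811413 (plus strand) for Tef. 
Ciart: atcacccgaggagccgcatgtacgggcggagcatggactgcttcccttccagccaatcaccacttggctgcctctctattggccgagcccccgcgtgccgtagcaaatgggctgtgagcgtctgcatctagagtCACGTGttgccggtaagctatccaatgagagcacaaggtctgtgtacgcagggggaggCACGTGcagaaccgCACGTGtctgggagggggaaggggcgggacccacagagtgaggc
Per3: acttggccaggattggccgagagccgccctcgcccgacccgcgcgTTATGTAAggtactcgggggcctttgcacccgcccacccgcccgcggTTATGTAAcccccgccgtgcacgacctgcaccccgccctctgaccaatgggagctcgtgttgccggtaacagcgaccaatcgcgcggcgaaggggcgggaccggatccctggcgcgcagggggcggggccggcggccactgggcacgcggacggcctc
Per1: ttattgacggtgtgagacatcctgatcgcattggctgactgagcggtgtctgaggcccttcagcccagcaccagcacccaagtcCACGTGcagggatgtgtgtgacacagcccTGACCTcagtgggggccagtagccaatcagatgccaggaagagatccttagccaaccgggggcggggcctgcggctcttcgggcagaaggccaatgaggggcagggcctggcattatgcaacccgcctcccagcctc
Tef: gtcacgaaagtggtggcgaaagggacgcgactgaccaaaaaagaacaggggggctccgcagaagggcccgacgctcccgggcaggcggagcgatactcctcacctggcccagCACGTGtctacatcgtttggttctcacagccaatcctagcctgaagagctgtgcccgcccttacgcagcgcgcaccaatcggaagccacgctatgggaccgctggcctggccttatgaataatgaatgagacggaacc
The Ciart window held 3 E-boxes, which began 116, 58 and 44 bases before the start site. The Per3 window held 2 D-boxes, beginning 205 and 158 bases before it. Per1 had its E-box 166 bases and the ROR motif 137 bases before the upstream of 2 listed starts, and its other window held none of the motifs. Tef had an E-box in both of its windows. It began 138 bases before the downstream of 2 listed starts, in the window shown, and 127 bases before the upstream start. A match describes these letters only and shows no binding.

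Arntl (chr7:113207465-113314126, plus strand), the obligate activator, was highest in the normal tissue of KO-1-hetero. In normal tissue the KO-1-hetero libraries had 21.3 and 17.4 FPKM and those of KO-8-homo 15.2 and 10.4 FPKM. The KO-8-hetero libraries had 6.23 and 3.67 FPKM, those of WT-young 3.47 and 8.76 FPKM, and those of WT-old 2.48 and 3.91 FPKM. Both KO-1-hetero normal libraries thus lay above all 8 other normal libraries, and both KO-8-homo libraries above the remaining 6. Of all genes tested, 5.56% were likewise higher and 4.43% lower in both KO-1-hetero normal libraries than in all others; of the 10 clock genes this held for Arntl (higher) and for Nr1d1, Nr1d2, Dbp and Ciart (lower). Among tumors, Arntl stood at 9.85, 10.9 and 14.02 FPKM in KO-1-hetero. KO-8-homo tumors had 7.96, 6.50 and 8.64 FPKM, and KO-8-hetero tumors 3.38, 5.03 and 5.30 FPKM. The WT-young tumors split within their group, at 3.56, 3.32, 6.76 and 10.02 FPKM, and the WT-old tumor was at 6.37 FPKM.

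Npas2 (chr1:39193731-39363236, plus strand), the partner that can stand in for CLOCK, varied less. Its level ranged from 1.61 to 8.61 FPKM in normal tissue and from 1.78 to 6.001 FPKM in tumors. The highest library of each tissue was KO-8-homo normal replicate 1 and WT-young tumor replicate 4, and the WT-young tumors with the higher Arntl (replicates 3 and 4) also had the higher Npas2, at 4.96 and 6.001 FPKM against 3.72 and 3.45 FPKM.

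Nr1d1 (chr11:98767932-98775333, minus strand), the repressor of Arntl, was lowest in KO-1-hetero, the title group with the highest mean Arntl in each tissue. The KO-1-hetero tumors had 1.90, 1.55 and 1.44 FPKM and the normal libraries of that group 1.35 and 2.001 FPKM. In the other normal libraries it read 42.4 and 87.8 FPKM (KO-8-hetero), 20.03 and 21.1 FPKM (KO-8-homo), 39.0 and 75.0 FPKM (WT-young), and 27.5 and 31.3 FPKM (WT-old). The other tumors were between 4.54 and 28.0 FPKM, so every KO-1-hetero library lay below every other library. Across libraries, the Pearson coefficient of Arntl and Nr1d1 was -0.729 in normal tissue (n = 10) and -0.476 in tumors (n = 14). With the group means taken out it was 0.161 and 0.635, so the opposite levels were seen between title groups and not within them. In both tissues Nr1d1 and Nr1d2 were lower in KO-1-hetero than in all other libraries; among tumors 1.28% of all genes were, and 0.58% were higher. Nr1d1 shares 263 exonic bases with Thra on the opposite strand in the GENCODE M21 annotation, and whether the authors counted by strand is not given in the sources used here. Its relative Nr1d2 (chr14:18204054-18239127, minus strand) showed the same separation, at 4.97 to 8.47 FPKM in the 5 KO-1-hetero libraries and at 13.1 to 34.0 FPKM in the other 19.

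Dbp (chr7:45705088-45710203, plus strand), a direct E-box target, fell into 2 ranges there. The low range held KO-1-hetero with 1.61 and 2.04 FPKM and KO-8-homo with 2.74 and 6.75 FPKM. The high range held KO-8-hetero with 50.05 and 91.4 FPKM, WT-young with 33.2 and 54.8 FPKM, and WT-old with 35.1 and 37.7 FPKM. Among tumors, those of KO-1-hetero had 1.93, 1.58 and 1.15 FPKM, those of KO-8-homo 1.69, 3.49 and 2.41 FPKM, and those of KO-8-hetero 8.37, 8.91 and 6.35 FPKM. WT-young tumors had 9.67, 11.3, 5.28 and 5.31 FPKM, and the WT-old tumor 16.7 FPKM. The KO-1-hetero and KO-8-homo ranges overlapped in tumors and lay below those of the other 3 groups. Dbp shares 539 exonic bases with Sphk2, Tef 193 with Gm17597 and Arntl 33 with Gm45355, each on the opposite strand, with the same uncertainty. Tef (chr15:81802421-81826863, plus strand), a related D-box activator, was at 7.01 to 9.93 FPKM in KO-1-hetero and KO-8-homo normal tissue and at 26.5 to 59.8 FPKM in the other normal libraries.

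Ciart (chr3:95878503-95882251, minus strand), which encodes a repressor of the ARNTL complex, followed Dbp. The KO-1-hetero normal libraries had 0.802 and 0.621 FPKM, those of KO-8-homo 0.961 and 1.54 FPKM, and the other 6 from 10.6 to 21.6 FPKM. Per1 (chr11:69095217-69109960, plus strand), a repressor that also responds to acute signals, was at 4.23 to 6.08 FPKM in the KO-1-hetero and KO-8-homo normal libraries and at 9.27 to 21.1 FPKM in the others. Per3 (chr4:151003652-151044665, minus strand) was at 1.398 to 3.62 FPKM in those same 4 libraries and at 5.003 to 13.9 FPKM in the other 6.

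Per2 (chr1:91415982-91459324, minus strand), a core repressor, parted from this pattern. The KO-1-hetero tumors had 10.3, 8.31 and 6.53 FPKM and the normal libraries 8.35 and 10.7 FPKM, within the range of the WT-labelled libraries. The KO-8-homo tumors had 1.801, 3.08 and 2.34 FPKM and the normal libraries 1.13 and 2.37 FPKM. These were the lowest Per2 values of their tissue, except that KO-8-hetero tumor replicate 3, at 2.88 FPKM, lay between them. The ratio of Per2 to Dbp was 5.19 to 5.67 in the 5 KO-1-hetero libraries and 0.115 to 1.06 in the other 19. KO-1-hetero and KO-8-homo thus shared high Arntl and low Dbp, Tef, Per1, Per3 and Ciart in normal tissue, and differed in Nr1d1, Nr1d2 and Per2. Nr1d2 was at 4.97 and 6.19 FPKM in the former and at 13.1 and 16.3 FPKM in the latter. What KO-1-hetero and KO-8-homo shared was read after the values were seen. The share of all genes that part the normal libraries in the same way was not counted.

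**Figure D1:**
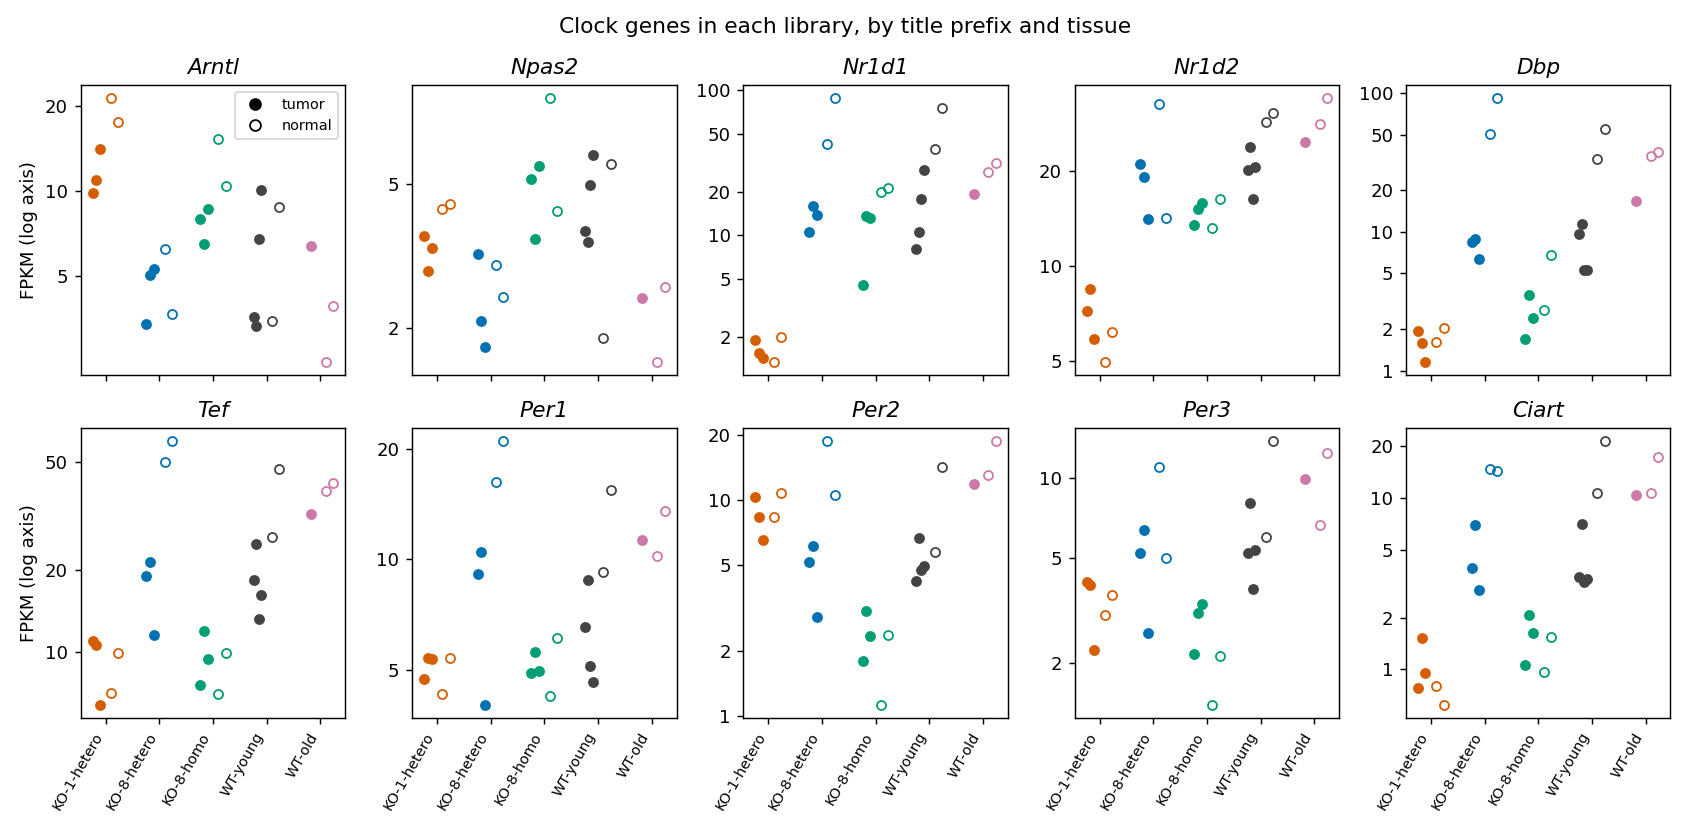
FPKM of the 10 clock genes (log axis, scaled for each gene) in each of the 24 libraries by title group, filled for tumor and open for normal tissue; each point is 1 library. Nr1d1 in the 5 KO-1-hetero libraries lies at 1.35 to 2.001 FPKM, below every other library, while Per2 is lowest in KO-8-homo.

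The activators and the other 8 genes were set against each other in single libraries, as a description. The mean log2(FPKM + 1) of Arntl and Npas2 exceeded that of the other 8 genes in 9 of 24 libraries: all 5 of KO-1-hetero and 4 of the 5 of KO-8-homo. The difference was 0.99 and 1.35 in KO-1-hetero normal tissue, 0.13 and 1.29 in KO-8-homo, and between -2.67 and -1.86 in the other 6 normal libraries. In tumors it was 0.39 to 0.97 in KO-1-hetero, -0.23 to 0.69 in KO-8-homo, -1.44 to -0.74 in KO-8-hetero, -1.48 to -0.11 in WT-young, and -1.74 in the WT-old tumor. With the exception of KO-8-homo, the tumor values lay nearer to 0 than the normal values of their own title group.

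**Figure D2:**
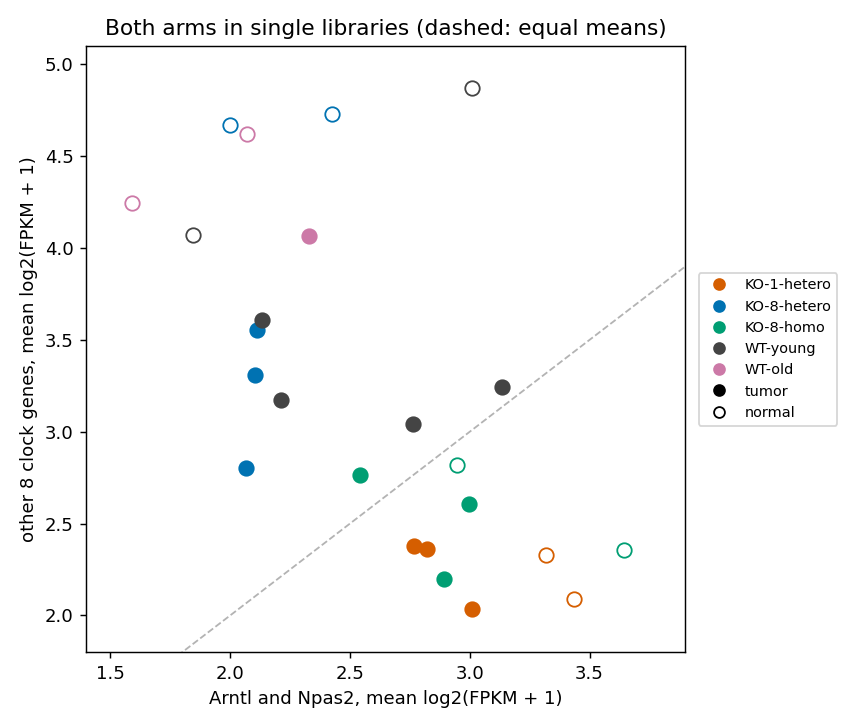
Each point is 1 library: mean log2(FPKM + 1) of Arntl and Npas2 on the horizontal axis and of the other 8 clock genes on the vertical axis, colored by title group, filled for tumor and open for normal tissue. Libraries below the dashed line of equal means are the 5 of KO-1-hetero and 4 of KO-8-homo.

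The ratio of Nr1d1 to Arntl put the groups in order. It was 0.0635 to 0.193 in KO-1-hetero, 0.570 to 2.08 in KO-8-homo, and 2.25 to 23.9 in the other 3 groups. Nr1d1 and Dbp did not always move together. In WT-young tumors, replicates 3 and 4 had less Dbp (5.28 and 5.31 FPKM) than replicates 1 and 2 (9.67 and 11.3 FPKM), but more Nr1d1 (17.9 and 28.0 FPKM against 8.02 and 10.6 FPKM) and more Arntl. In KO-8-homo normal tissue, Nr1d1 was at 20.03 and 21.1 FPKM against 27.5 and 31.3 FPKM in WT-old, while Dbp was at 2.74 and 6.75 FPKM against 35.1 and 37.7 FPKM.

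**Figure D3:**
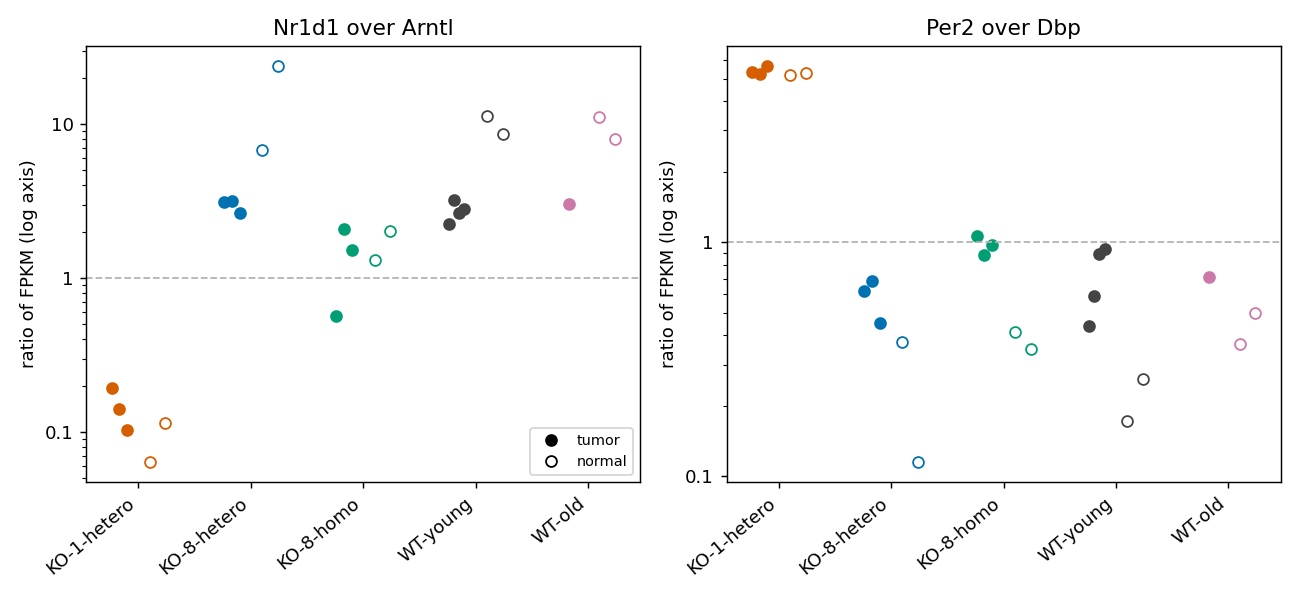
Ratio of Nr1d1 to Arntl (left) and of Per2 to Dbp (right) in FPKM, on log axes, in each library by title group, filled for tumor and open for normal tissue; the dashed line marks equal levels. The KO-1-hetero libraries lie at 0.0635 to 0.193 on the left and at 5.19 to 5.67 on the right, apart from all others.

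Whether levels differed among the 5 title groups was asked with limma F tests over all 13799 genes, added after the values were seen. In normal tissue 9 of the 10 clock genes passed a Benjamini-Hochberg adjusted p of 0.05, all but Npas2, where 3.02% of all genes did. In tumors 6 passed (Nr1d1, Nr1d2, Dbp, Tef, Per2 and Ciart), where 9.94% of all genes did. Without the KO-1-hetero libraries, 4 passed in normal tissue (Dbp, Tef, Per2 and Ciart), where 0.899% of all genes did, and 3 in tumors (Dbp, Tef and Ciart), where 7.48% did. Without the WT-old libraries, which include 1 tumor, 4 clock genes passed in tumors, where 92 of all genes did in place of 1372. In normal tissue that fit called 9 clock genes, and 803 of all genes in place of 417. Because the genes were named with these levels known, the counts are given as a description.

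In normal tissue the title groups differed more than the libraries within a group for 9 of the 10 genes, with Npas2 as the exception. There the SD of the 5 group means of log2(FPKM + 1) was 2.04 for Dbp, against a within-group SD of 0.49. The same pair of values was 1.84 and 0.457 for Nr1d1, 1.64 and 0.386 for Ciart, and 1.24 and 0.333 for Tef. For Npas2 it was 0.468 and 0.5. In tumors the pair lay closer for several genes, at 0.454 and 0.422 for Arntl and at 0.417 and 0.372 for Per1, against 1.13 and 0.371 for Dbp. Over all genes tested the medians were 0.237 and 0.271 in normal tissue and 0.207 and 0.209 in tumors. Every one of the 10 genes had a wider within-group spread than the median gene, with percentiles from 62.9 (Nr1d2) to 91.0 (Nr1d1).

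Genes of the clock that were not among the 10 were taken from a textbook list, chosen with earlier results of these data known. Their counts are therefore a description too. Of the 9 tested genes of the clock loops, 3 differed among title groups in normal tissue by the limma F test, among them Cry1 (adjusted p = 0.00576) and Nfil3 (0.0107). Cry1, the partner of PER in repression, was at 10.6 and 11.6 FPKM in KO-1-hetero normal tissue and at 3.16 to 8.42 FPKM in the other 8 normal libraries. In tumors Cry1 (adjusted p = 0.00881) was at 8.40 to 9.18 FPKM in KO-1-hetero and at 3.31 to 5.50 FPKM in the other 11. Nfil3, a repressor at D-boxes, was at 4.76 and 5.38 FPKM in KO-1-hetero normal tissue and overlapped the 0.449 to 7.82 FPKM of the other normal libraries. Clock, Cry2, Bhlhe40, Hlf and Arntl2 were among those that did not pass in normal tissue. Of 8 clock output genes 3 passed there: Usp2, Pim3 and Por. Por, which encodes the electron donor of cytochrome P450 enzymes, was at 19.1 and 27.2 FPKM in KO-1-hetero and at 36.3 to 86.3 FPKM in the other normal libraries (adjusted p = 0.032). None of the 9 tested modifiers of clock proteins, 6 glucocorticoid-inducible genes and 6 immediate early genes passed by this test in normal tissue. Of all genes 3.02% passed there. At that share, a list this short can lack calls without differing from all genes.

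Marker lists of other cell types and other traits of the libraries were read beside these differences. In normal tissue 3.02% of all genes differed among title groups by limma. Of the 5 epithelial, 5 smooth muscle, 5 fibroblast, 5 leukocyte and 3 tested enteric neuron and glia markers 0 did, while 2 of 5 proliferation markers did. Summed proliferation markers reached 136 and 138 FPKM in the normal libraries of KO-1-hetero, 117 and 124 FPKM in those of KO-8-homo, and 54.4 to 98.0 FPKM elsewhere, so they were higher in the 4 libraries with the lowest Dbp; their part in the result was not tested. In tumors the sums tended the other way with overlap, at 88.8 to 141 FPKM in KO-8-homo and KO-1-hetero, where Dbp was lowest, and at 128 to 174 FPKM in the other groups. Also in tumors, 4 of 5 smooth muscle and 5 of 5 leukocyte markers differed among title groups, where 9.94% of all genes did. Summed smooth muscle markers were at 1992 FPKM in the WT-old tumor, the only tumor of its group. They reached at most 876 FPKM in KO-labelled and 253 FPKM in WT-young tumors. The part of these markers was not tested. Xist was above 1 FPKM in 6 libraries: both normal libraries and tumor replicate 3 of KO-1-hetero and of KO-8-hetero. In normal tissue these groups had the lowest and the highest Dbp. The other 18 libraries had at most 0.0719 FPKM, among them tumor replicates 1 and 2 of these groups and all KO-8-homo and WT-labelled libraries. Xist thus parted most tumors from the normal libraries of both groups, and its part in their tumor-normal differences was not tested. Estimated relative depth was 0.826 to 1.17 of the median library in KO-1-hetero and 0.689 to 1.87 over all libraries.

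Tumor was compared with normal tissue as the mean difference over the 5 title groups. Of the 10 clock genes 6 fell in tumors and 0 rose, where 62.7% of all genes changed, 29.5% falling and 33.2% rising. The log2 difference was -1.44 for Dbp (SE 0.17), -1.12 for Nr1d1 (SE 0.219), -0.62 for Ciart (SE 0.161), -0.53 for Tef (SE 0.148), -0.48 for Per2 (SE 0.165) and -0.41 for Per1 (SE 0.145). Arntl (-0.13, SE 0.179), Npas2 (-0.07, SE 0.153), Nr1d2 (-0.16, SE 0.122) and Per3 (-0.14, SE 0.184) did not pass. The median over the 10 genes was -0.45, against 0.03 over all genes. The call of Per1 was lost without WT-young normal replicate 2 (limma adjusted p = 0.0522). For 0 of the 10 genes did all tumors lie below, or above, all normal libraries; this held for 3.43% and 3.28% of all genes.

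Within title groups the counts differed. In KO-8-hetero 6 of the 10 genes fell, where 43.1% of all genes changed, 21.2% falling and 21.9% rising. In WT-young 5 fell, where 26.1% of all genes changed, 12.5% falling and 13.7% rising. Dbp fell by 2.96 (SE 0.355) on the log2 scale in KO-8-hetero and by 2.36 (SE 0.337) in WT-young. In KO-1-hetero 0 of 10 passed in either direction, and 0 had an unadjusted limma p below 0.05, where 14.1% of all genes passed the adjusted threshold, 6.93% higher and 7.2% lower, and 4326 of 13799 had an unadjusted p below 0.05. The Dbp difference there was -0.15 (SE 0.355), with all 5 libraries between 1.15 and 2.04 FPKM. In KO-8-homo 0 of 10 passed, 1 had an unadjusted p below 0.05, and 23% of all genes passed, 11.8% higher and 11.2% lower, and 5156 of 13799 had an unadjusted p below 0.05. The WT-young count was 3 without tumor replicate 3 and 2 without normal replicate 2. The difference between title groups was itself tested with a limma F test added after the values were seen. It was called for Dbp, Tef and Ciart, where 8.23% of all genes were called. The count dropped to 1 without KO-8-homo normal replicate 1 and to 0 without the KO-1-hetero libraries. Smooth muscle markers fell from a median sum of 2067 FPKM (613 to 4975 FPKM) in normal tissue to 348 FPKM (110 to 1992 FPKM) in tumors, and leukocyte markers rose from 38.4 FPKM (22.4 to 76.3 FPKM) to 209 FPKM (60.9 to 882 FPKM). Their part in the tumor differences was not tested, and fewer cells of a type and less RNA per cell cannot be told apart in bulk tissue.

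**Figure D4:**
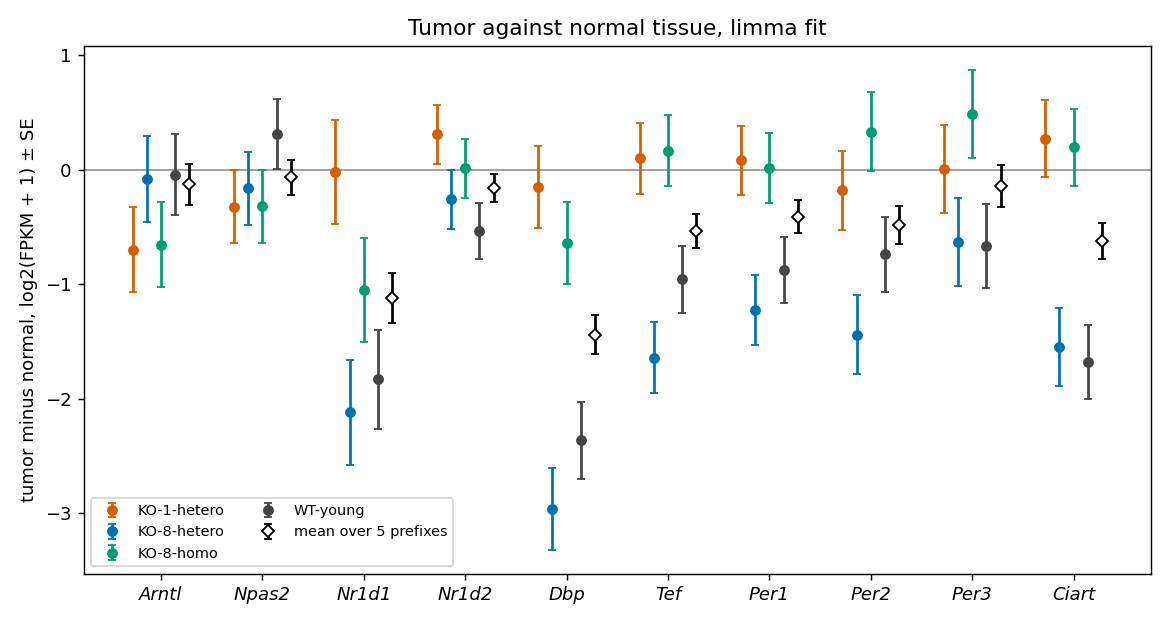
Tumor minus normal difference of log2(FPKM + 1) for each clock gene, with its SE from the limma fit, for the 4 title groups with more than 1 tumor (circles) and for the mean over all 5 (diamonds). Dbp lies at -2.96 in KO-8-hetero and -2.36 in WT-young, and at -0.15 in KO-1-hetero.

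Around the 10 genes, other genes of the clock loops changed in both directions in tumors. Of the 9 tested, 4 rose and 2 fell, a share near that of all genes, of which 33.2% rose and 29.5% fell; the counts of the lists that follow stand beside the same shares. Arntl2, a relative of Arntl, had 0.626 ± 0.198 FPKM in normal tissue (SD, n = 10) and 3.999 ± 1.31 FPKM in tumors (SD, n = 14). Its log2 difference was 1.39 (SE 0.113, limma adjusted p = 8.52e-08). Bhlhe40, a repressor of E-box genes, rose by 0.67 (SE 0.152, adjusted p = 0.0011). Hlf, the relative of Dbp and Tef, fell by 0.62 (SE 0.129, adjusted p = 0.000536). Of the clock output genes 5 of 8 fell and 2 rose, led by Usp2, a deubiquitinase, which fell by 1.78 (SE 0.124, limma adjusted p = 2.26e-08). Its level was 11.4 ± 6.99 FPKM (SD, n = 10) in normal tissue and 1.86 ± 1.28 FPKM (SD, n = 14) in tumors. Pim3, Por and Wee1 fell by 0.68, 0.62 and 0.43. Among modifiers of clock proteins 3 of 9 rose and 2 fell, with Timeless at 0.73 and the kinase gene Csnk1e at 1.09, and with Cipc, an inhibitor of CLOCK, at -0.99. Glucocorticoid-inducible genes, a list examined because Per1 responds to this hormone, fell in 5 of 6 cases. Fkbp5 changed by -1.69, Sgk1 by -1.11, Zbtb16 by -0.70 and Klf9 by -0.68. Of 6 immediate early genes 2 rose (Egr1 by 0.91 and Nr4a1 by 0.52) and Ier2 fell by 0.42.

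The comparison that the series title names, KO with WT, called 0 of the 10 clock genes. In tumors limma called 0 of 10, where 0.00725% of all genes were called. At an unadjusted p below 0.05 there were 2 of 10 (Nr1d2 and Per3) and 1147 of all 13799 genes. In normal tissue limma called 0 of 10, where 0% of all genes were called. At an unadjusted p below 0.05 there were 6 of 10 and 645 of all 13799 genes. The pooled log2 difference in normal tissue was -1.996 for Dbp (SE 0.767), -1.98 for Ciart (SE 0.582) and 1.16 for Arntl (SE 0.401). The pool joined unlike groups: Dbp ran from 1.61 to 91.4 FPKM in the 6 KO-labelled normal libraries and from 33.2 to 54.8 FPKM in the 4 WT-labelled ones. The interaction of label and tissue called 0 of 10 clock genes, and 0% of all genes; at an unadjusted p below 0.05 there were 0 of 10 and 654 of all 13799 genes. Maf, the gene of the label, was at 1.52 to 6.27 FPKM in KO-labelled and 1.37 to 2.82 FPKM in WT-labelled normal tissue. In tumors it was at 2.62 to 7.40 FPKM and 1.63 to 7.26 FPKM, so Maf was not lower in the KO-labelled libraries as a group. The WT-old tumor gave the 7.26 FPKM, and the 4 WT-young tumors, at 1.63 to 2.26 FPKM, lay below all KO-labelled tumors.

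Single KO groups were set against the same 4 WT-young tumors. For KO-1-hetero tumors 4 of the 10 clock genes were called, all lower (Nr1d1, Nr1d2, Dbp and Ciart), where 2.88% of all genes were called, 1.25% lower and 1.63% higher. Without KO-1-hetero tumor replicate 3 the count was 1, and 15 of all genes were called in place of 397. For KO-8-hetero and for KO-8-homo tumors limma called 0 of 10, where 0.00725% and 0.457% of all genes were called (0.058% higher and 0.399% lower for KO-8-homo). At an unadjusted p below 0.05 there were 1 of 10 clock genes and 961 of all 13799 genes for KO-8-hetero, and 5 of 10 and 1399 for KO-8-homo. KO-8-homo against KO-8-hetero tumors gave 0 of 10 by limma, where 0.0507% of all genes were called; at an unadjusted p below 0.05 there were 5 of 10 and 801 of all 13799 genes.

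Genes outside the 10 that varied most like Arntl or Dbp were sought after the 10 group means were taken out, by the Pearson coefficient of log2(FPKM + 1) over 24 libraries, as a description. For Arntl the highest were Ptp4a2 (0.917), Ccser1 (0.914), Clic5 (0.909), Tmem45b (0.904) and Eps8 (0.89), and the lowest Lysmd2 (-0.917), Cacng7 (-0.871), Sap30 (-0.863), Mras (-0.853) and Cxx1c (-0.852). None of the other 9 clock genes was among the 50 highest or the 50 lowest. Npas2 was at 0.695, Nr1d1 at 0.473 and Dbp at -0.514, and the remaining clock genes ran from -0.287 (Tef) to 0.151 (Per2). For Dbp 3 of the 50 highest were clock genes, with Tef at 0.832 and Per1 at 0.733. Outside the 10, the highest for Dbp were Ubtf (0.739), Jrk (0.72), Mettl9 (0.698), Tns2 (0.69) and Fbxo31 (0.669), and the lowest Gramd3 (-0.763), Arl16 (-0.743), Ero1l (-0.733), Clec4a1 (-0.727) and Ak4 (-0.719). The 24 values of a gene share the tissue makeup and depth of their libraries.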

How the data were processed

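Total RNA of colorectal tissue was extracted with a miRNeasy kit and made into stranded TruSeq mRNA libraries, per the labels' protocols. The authors deposited 1 table per library with FPKM values, per the file headers. The submitters' processing notes name TopHat2 2.1.1, Bowtie2 2.2.8, SAMtools 0.1.18, Cuffdiff 2.2.1 and the build mm10; roles and annotation are not given in the sources used here. Fragment totals are unknown, so no counting intervals are given. Relative depth was taken from the most frequent ratio, between libraries, of the values of genes that never reached 1 FPKM. No 2 libraries were identical.

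Values were taken as log2(FPKM + 1), pseudocount 1, which understates changes of low genes. The filter required 4 or more libraries with a minimum of 1 FPKM. limma 3.58.1 (R 4.3.3; lmFit, contrasts.fit, eBayes with trend; two-sided; Benjamini-Hochberg over all genes kept; threshold 0.05) was fitted on all 24 libraries, with 10 groups of title group and tissue, or with 4 combinations of genotype label and tissue for the label comparisons. The fits of tumor against normal tissue and of differences among normal title groups were run on simulated data. These held independent noise around the mean of each gene, with no tissue makeup or collection effect shared by libraries. The simulation therefore cannot show how such shared effects bear on the calls. Tables were joined with Python 3.11.15, numpy 2.4.6 and pandas 2.3.3.

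The 10 genes and the gene lists were chosen with earlier results of these data known. Beyond the 10, the text names up to 4 called genes per list by p, in tumor against normal tissue, and the 5 genes most and least like Arntl and Dbp. Some list genes that the rule names are not reported here. Genes named from the tests among title groups were chosen after their values were seen, as were those tests and the tumor-normal comparisons of single title groups. Alternatives were another pseudocount, other filters, 2 scalings, a replicate block, robust eBayes, and fits without WT-old, without KO-1-hetero or without each library. Gene spans are from GENCODE M21 (GRCm38) and upstream sequences from RefSeq (GRCm38.p6).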

Additional observations from a re-analysis of the deposited data

Results flagged for a closer look

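For 3 clock genes the difference between tumor and normal tissue varied with the title group by the limma F test: Dbp (adjusted p = 0.00754), Ciart (0.0218) and Tef (0.0425).

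Single libraries stood apart from the others of a set by Dixon's criterion in 3 of 60 sets of values tested. The sets overlapped and the genes moved together, so no chance rate is set beside this share. Of the 3, Npas2 was at 8.61 FPKM in KO-8-homo normal replicate 1 among the 6 KO-labelled normal libraries. Per3 was at 11.1 FPKM in KO-8-hetero normal replicate 1 among the same 6, which join unlike title groups. Ciart was at 7.004 FPKM in WT-young tumor replicate 2 among the 4 WT-young tumors.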

How the results depend on the processing

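Tumor against normal tissue called 6 clock genes, and 5 to 7 when each library was left out. With tumor and normal libraries of the same number in a title group as a replicate block it called 2, Dbp and Nr1d1. The labels do not say that the numbers pair libraries. Deviations of same-numbered tumor and normal libraries from their group means correlated at -0.159 to 0.355. With 2 normal libraries per group their deviations mirror each other, so these values cannot decide whether the numbers pair libraries. In KO-1-hetero and KO-8-hetero the libraries numbered 1 and 2 had Xist below 1 FPKM in tumors and above 1 FPKM in normal tissue. With the replicate number as a block, 1 clock gene was called in each of KO-8-homo against WT-young tumors, KO-8-homo against KO-8-hetero tumors and KO-8-homo tumor against normal, and 5 in the test of tumor-normal differences between title groups, in place of 0, 0, 0 and 3. The same block gave 4 in place of 6 for tumor against normal tissue and 6 in place of 4 for KO-1-hetero against WT-young tumors. Quantile normalization gave 1 in KO-8-homo against WT-young tumors. Without the KO-1-hetero libraries, 0 of 3 were called for tumor-normal differences between title groups, 4 of 9 in normal tissue and 3 of 6 in tumors. Leaving out each library gave 1 to 5 in KO-1-hetero against WT-young tumors, 2 to 6 in WT-young tumor against normal, 1 to 4 in the test of tumor-normal differences, 6 to 10 among normal groups and 4 to 7 among tumor groups. Values that did not pass changed sign: Arntl to 0.0144 without KO-1-hetero, Per3 to 0.0176 and 0.0202 with the replicate block over all libraries and within title groups, and Npas2 from -0.1871 to 0.0546 without single libraries. Nr4a1 and Ier2 lost their calls under some settings, with limma adjusted p up to 0.0703 and 0.0549 without single libraries. Scalings moved the median of all genes from 0.03 to between -0.07 and -0.01 and no call of the 10 genes in tumor against normal tissue. Over all genes, the counts called among normal groups ran from 85 to 3841 without single libraries, among tumor groups from 90 to 2169, in the test of tumor-normal differences from 161 to 4169, in KO-1-hetero tumor against normal from 55 to 2590, in KO-8-hetero from 2506 to 6795, in KO-8-homo from 737 to 3921, and in KO-1-hetero against WT-young tumors from 15 to 605. The corresponding KO-8-hetero and KO-8-homo tumor comparisons ran from 0 to 242 and 18 to 78, and KO-8-homo against KO-8-hetero from 0 to 342. Without WT-old the 3 tests among title groups called 803 (normal), 92 (tumor) and 214 (differences) of all genes in place of 417, 1372 and 1135; quantile normalization gave 203 in normal tissue and 19 in place of 7 for KO-8-homo against KO-8-hetero tumors, where the replicate block gave 15. The block gave 230 in place of 397 for KO-1-hetero and 42 in place of 63 for KO-8-homo against WT-young tumors, and fits without KO-1-hetero gave 124 in normal tissue. Fits with fewer libraries gave fewer calls in some cases and more in others, and the cause of these changes was not tested. Unknown depth limits the precision of low values such as Ciart near 1 FPKM.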
